A study of Mus musculus with 3 samples.

Results

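The transcriptome of the wild-type mandibular condyle was read from the WT column of the table that the authors deposited, which is 1 of 3 libraries of the series. The WT sample was genotype +/+ for Dspp, and the study's methods describe mice of a C57BL/6 background. Condyles were taken at 4 months of age with the cartilage and the subchondral bone still joined, and tissue of 3 animals was pooled before RNA was extracted. The other libraries, Dspp+/- and Dspp-/-, were not used here. All 26970 genes of the WT column were ranked by their value, and 22853 of them were above 0. Shares of the summed value were then taken for lists of genes that mark bone, cartilage, muscle, marrow, fat, vessel and nerve, and for classes of genes such as collagens and ribosomal proteins. The sex of the mice is not given in the labels. The Y-linked helicase gene Ddx3y was at 22.5 FPKM, and the X-inactivation RNA gene Xist had 2 fragments and a level of 0.00551 FPKM.

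The mandibular condyle is the jaw's side of the temporomandibular joint. It is covered by fibrocartilage, in which a fibrous surface lies over a layer of dividing progenitors and then chondrocytes that enlarge, calcify their matrix and are replaced by bone. Beneath it lies trabecular bone built by osteoblasts, kept by osteocytes and resorbed by osteoclasts, with blood-forming marrow in its spaces. The lateral pterygoid muscle, the capsule and the disc attach to the condyle, so a dissected condyle can carry muscle, tendon, vessel and nerve tissue.

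The values are FPKM, which are fragments divided by the length of the gene and by the depth of the library, so that levels can be set beside each other between genes. The depth recovered from the WT column was 20241576 fragments, so that 1 fragment added 0.0494 FPKM to a gene whose exons sum to 1 kilobase. WT is 1 pooled library with no replicate, so no value has an error between mice and no difference between genes or lists was tested. Intervals given are 95% Clopper-Pearson intervals on fragments and cover counting error only. In a bulk sample a low level of a cell type's genes can mean fewer cells or less RNA per cell, and these cannot be told apart.

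A few genes held much of the library. The median gene was at 0.741 FPKM, and 12670 genes, 47.0% of those in the table, were at or above 1 FPKM. Counts of list members at or above 1 FPKM given below are to be read beside this share. Above 10 FPKM there were 3993 genes, above 100 FPKM 295 genes, and above 1000 FPKM 24 genes, of which 15 are encoded in the nucleus. Those 24 genes held 36.1% of the summed FPKM, whereas the 10183 genes above 0 and below 1 FPKM held 0.869% together. The 8 highest genes reached 25% of the sum, 138 genes reached 50%, and 4912 genes reached 90%. Mitochondrially encoded genes made up much of this concentration, since without them 499 genes were needed to reach 50%.

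**Figure D1:**
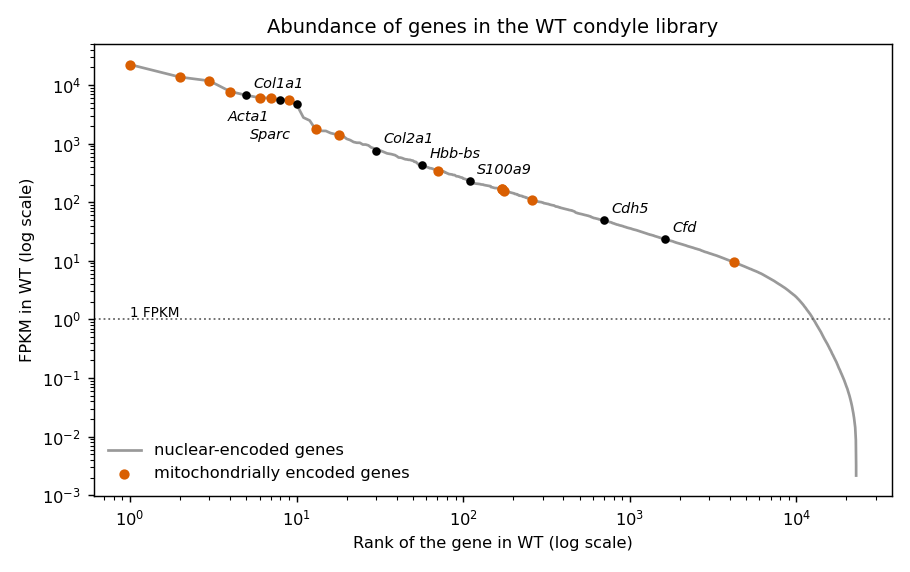
FPKM in the WT library (log scale) against the rank of the gene (log scale), for genes above 0. The grey line is nuclear-encoded genes, orange points are mitochondrially encoded genes, black points are named genes, and the dotted line marks 1 FPKM. Mitochondrial genes take the first 4 ranks, Col1a1 has rank 5, and the curve crosses 1 FPKM after 12670 genes.

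The highest nuclear-encoded genes belonged to bone matrix and fast muscle. Col1a1, which encodes the alpha 1 chain of type I collagen, the main protein of bone matrix, was at 6675 FPKM with an interval of 6661 to 6689. In the authors' table, whose genome build is not named, it lies on chromosome 11 from 94827050 to 94843868. Acta1, the actin of skeletal muscle fibres, was at 5609 FPKM. Sparc, the matrix protein osteonectin, was at 4675 FPKM. Col1a2, the partner chain of type I collagen, was at 2780 FPKM, and Spp1, the acidic bone protein osteopontin, was at 2474 FPKM. Next came Gpx3, a secreted glutathione peroxidase, at 1649 FPKM, and Ibsp, bone sialoprotein, at 1643 FPKM, whose counting intervals overlap.

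Ranks 8 to 15 mixed muscle, bone and general genes. Eef1a1, the translation elongation factor, was at 1513 FPKM, Tnnt3, the fast troponin T, at 1450 FPKM, and Bglap, osteocalcin, at 1353 FPKM. Mb, the oxygen store myoglobin, was at 1204 FPKM, Atp2a1, the calcium pump of fast fibres, at 1146 FPKM, and Rplp1, a ribosomal stalk protein, at 1064 FPKM. Aldoa, the aldolase of glycolysis, and Fmod, the collagen-binding proteoglycan fibromodulin, were at 1034 and 1032 FPKM with overlapping intervals. The rest of the 30 highest nuclear genes lay from 963 FPKM, for the protease inhibitor Cst3, to 635 FPKM, for the Z-disc protein Tcap. They were Chad, Mylpf, Ctsk, Tnni2, Col2a1, Eef2, Acp5, Ckm, Bgn, Bglap2, Myh1, Tpm2 and Mmp13. Of the 29 neighbouring pairs among these 30 genes, 10 had counting intervals that overlap.

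By list, the 30 genes held 9 of bone, 10 of muscle, 2 of cartilage and 1 of the fibrous layer, and 8 in no tissue list. Among the 100 highest nuclear genes, 14 were in the bone list, 18 in muscle and 7 in the fibrous, tendon and synovium list. Cartilage gave 5, marrow 4 and vessel 1, which was Des, also in the muscle list. No gene of the fat or nerve lists was among the 100. Ribosomal proteins gave 10 of the 100, and 39 of the 100 were in no tissue list and no class. The 100 genes held 31.1% of the FPKM summed over nuclear genes, and Col1a1 alone held 2.89%.

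The highest nuclear genes were short. Their merged exons had a median length of 2191.5 bases among the top 100, against 4171 bases among the 12655 nuclear genes at or above 1 FPKM. The median number of exons was 7 against 9, and 97% were protein-coding against 90.7%. FPKM divides by the merged length of all annotated exons, so a ranking by FPKM favours genes with short merged exons. The difference in length is therefore not independent of the ranking. For many genes the merged length is longer than the main transcript. Per length of the principal transcript, 22 of the 30 genes stayed among the 30 highest, and the first 4 were then Sparc, Col1a1, Col1a2 and Acta1.

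Some of the highest genes also had in common a sequence before their start site. In promoters from RefSeq on GRCm38.p6, the letters TATAAA were searched on the gene's strand in the last 40 bases before the start. A row was found for 73 of the 100 highest nuclear genes, and 10 of these, or 13.7%, held the letters. The share was 1.75% among 9438 nuclear genes at or above 1 FPKM with a row and 2.78% among all 27025 genes with a promoter. On the opposite strand the shares were 1.37%, 0.562% and 1.08%. This is a description of the letters and was not tested. The 60 bases before the start are shown for Bglap and Chad, a bone and a cartilage gene that hold the letters (in capitals), and for Sparc and Ctsk, 2 other abundant bone genes that lack them.
Bglap (chr3:88384467-88384526, minus strand): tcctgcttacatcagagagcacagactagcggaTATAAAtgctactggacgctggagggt
Chad (chr11:94564987-94565046, plus strand): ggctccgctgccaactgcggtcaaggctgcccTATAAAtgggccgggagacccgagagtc
Sparc (chr11:55420081-55420140, minus strand): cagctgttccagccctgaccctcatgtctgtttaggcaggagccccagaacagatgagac
Ctsk (chr3:95499150-95499209, plus strand): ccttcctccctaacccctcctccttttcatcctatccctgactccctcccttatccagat
In Bglap the first T of the letters lies 27 bases before the start and in Chad 28 bases, the usual place of a TATA box, whereas Sparc and Ctsk hold no such run in this window. In Acta1 the letters lie 7 bases before the start, and the count of 10 takes them anywhere in the 40 bases.

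The library is labelled as condyle, and the defining genes of bone (Col1a1, Bglap) and cartilage (Col2a1, Acan) were present, as were those of skeletal muscle (Acta1, Ckm). The 64 genes of the bone list held 8.42% of the summed FPKM and 12.4% of the fragments. The 58 muscle genes held 6.42% of the FPKM and 5.23% of the fragments. The fibrous layer, tendon and synovium list held 1.55% of the FPKM and 2.88% of the fragments. Of the FPKM, cartilage held 1.27%, marrow 1.01%, vessel 0.453%, fat 0.130% and nerve 0.0400%. A share depends on which genes are in a list, and many of the bone genes are also made by other cells. Without the genes marked as shared between tissues, bone held 2.29% and muscle 5.83%, so their order turned. Counted as fragments, vessel (0.590%) came before marrow (0.533%). Des, which skeletal muscle also makes, gave 39271 of the 119396 vessel fragments, and marrow had 107838.

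**Figure D2:**
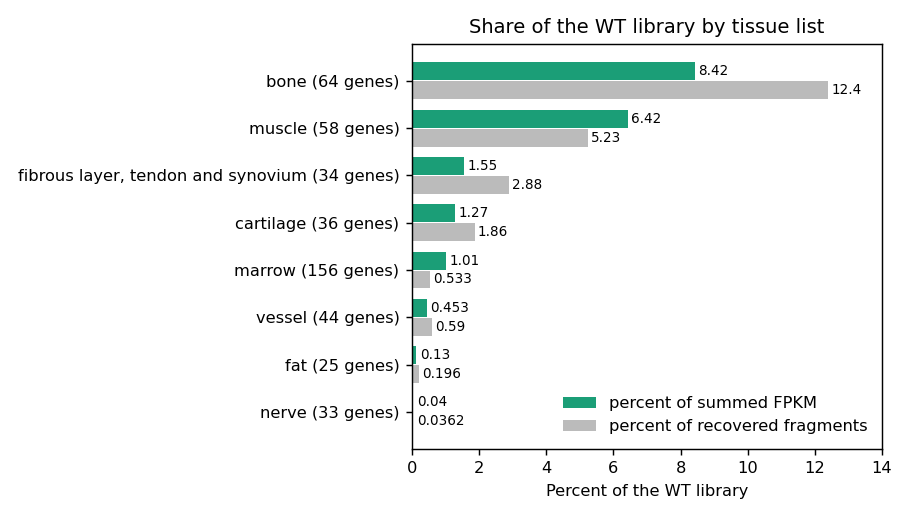
Percent of the WT library held by each tissue list, as summed FPKM (green) and as recovered fragments (grey), with the number of genes that have a value. Bone and muscle hold 8.42% and 6.42% of the summed FPKM. Next comes the fibrous layer, tendon and synovium list at 1.55% of the FPKM and 2.88% of the fragments.

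Osteoblast genes made up most of the bone share. Of 29 genes, 28 were at or above 1 FPKM, their median was 52.4 FPKM, and they held 7.09% of the summed FPKM. After the matrix genes came Serpinh1, the collagen chaperone, at 428 FPKM and Alpl, the phosphatase of mineralization, at 203 FPKM. The transcription factors were lower, with Sp7 at 65.4 FPKM, Dlx5 at 34.0 and Runx2 at 17.7. The osteocalcin copies differed in level. Bglap2 was at 679 FPKM, below the 1353 FPKM of Bglap, and Bglap3 was at 0.207 FPKM. Of the 100-base sequences of Bglap, 37.0% are also found in Bglap2, and of those of Bglap2, 51.6% are found in Bglap, so the split between them is uncertain.

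Of 14 osteocyte genes, 13 were at or above 1 FPKM. Mepe, a phosphoprotein of mineralized matrix, was at 369 FPKM, and Sost, the Wnt inhibitor sclerostin, was at 272 FPKM. Sost stood at 1.43 times Dmp1, an acidic protein of osteocytes at 191 FPKM, with an interval of 1.39 to 1.47. Fgf23, the hormone of phosphate excretion, had 4 fragments and a level of 0.109 FPKM. Postn, or periostin, was the highest of the list at 431 FPKM and is shared with fibrous tissue. Osteocyte genes held 0.476% of the summed FPKM.

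All 21 osteoclast genes were at or above 1 FPKM, and they held 0.853% of the sum. Ctsk, the collagen-cleaving cathepsin K, was at 863 FPKM, and Acp5, the tartrate-resistant phosphatase, was at 756 FPKM. Their ratio of 1.14 became 0.814 per length of the principal transcript, so their order depends on the length used. Mmp9, the gelatinase of osteoclasts and other cells, was at 552 FPKM. The genes of fusion and signalling lay far below these enzymes. Ocstamp was at 9.02 FPKM, Tnfrsf11a, the receptor RANK, at 5.73 and Calcr, the calcitonin receptor, at 2.66. Of the signals that control these cells, Tnfrsf11b, the decoy receptor osteoprotegerin, was at 23.4 FPKM and Tnfsf11, its ligand RANKL, was at 14.3 FPKM. The ratio of the decoy to the ligand was 1.63, with an interval of 1.49 to 1.80. Csf1r, the receptor of the macrophage growth factor, was at 43.2 FPKM and its ligand Csf1 at 14.2.

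The acidic phosphoproteins of bone measured here were led by Spp1, and Ibsp, Mepe and Dmp1 followed in that order. Spp1 and Ibsp stood at a ratio of 1.51, with an interval of 1.49 to 1.52, and of 1.65 per principal transcript. Mmp13, the collagenase of osteoblasts and hypertrophic chondrocytes, was the highest of 19 matrix metalloproteinases at 649 FPKM, ahead of Mmp9 at 552, Mmp2 at 381 and Mmp14 at 114. Of the 19, 12 were at or above 1 FPKM, against 47.0% of all genes, and Mmp24, Mmp21 and Mmp27 were at 0. Timp2, an inhibitor of these enzymes, was at 375 FPKM and was 0.986 of Mmp2, with an interval of 0.970 to 1.002. Per principal transcript it was 0.946 of Mmp2.

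Collagens held 4.11% of the summed FPKM and 10.5% of the fragments, and 32 of 44 were at or above 1 FPKM. Col1a1 alone was 52.7% of the class. Col1a1 and Col1a2 stood at 2.40 to 1 in FPKM, with an interval of 2.39 to 2.41. Per length of the principal transcript this ratio was 1.14, because the merged exons of Col1a2 run to 12426 bases against 5348 for its principal transcript. The length also moved the ratio of the type VI chains Col6a1 and Col6a2, from 2.62 to 1.33. Col1a1 was 8.77 times Col2a1, the collagen of cartilage, and 5.36 times by principal transcript. Col3a1, the fibrillar collagen of soft tissue, was at 576 FPKM. Of the 28 enzymes and chaperones that process collagen, 27 were at or above 1 FPKM, with P4hb at 196 FPKM and the crosslinking oxidase Lox at 129 behind Serpinh1, and Tll1 was at 0.350. Ppib, a prolyl isomerase of the same complex as Crtap, was at 20.8 FPKM against 80.2 for Crtap, and 24.96% of its exons lie in another gene.

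Of 37 symbols in the chondrocyte list, 36 had a value. Of these 36 genes, 32 were at or above 1 FPKM, and the median of the 36 was 26.3 FPKM. Chad, the matrix protein chondroadherin, was the highest at 962 FPKM, above Col2a1 at 761 FPKM. The ratio of 1.26 became 0.698 per principal transcript, so the order of these 2 genes turned. Comp, a matrix protein of cartilage and tendon, was at 462 FPKM, and Col10a1, the collagen of hypertrophic chondrocytes, was at 246 FPKM. Acan, the large proteoglycan aggrecan, was at 84.1 FPKM, so that Col2a1 stood at 9.05 times Acan and 3.10 times Col10a1. Per principal transcript these ratios were 16.1 and 5.61. Among the regulators, Sox9 was at 11.1 FPKM, Sox6 at 5.63 and Sox5 at 2.37.

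Of the matrilins, matrix proteins of cartilage, Matn2 was at 23.6 FPKM, near the median of the list, and is also made outside cartilage. Matn1 had 2 fragments and a level of 0.0494 FPKM, Matn3 was at 0.836 FPKM, and Matn4 was at 1.84. The fibril-associated chains Col9a1, Col9a2 and Col9a3 were at 14.9, 22.2 and 18.8 FPKM. Epyc, a proteoglycan of epiphyseal cartilage, had 6 fragments and a level of 0.116 FPKM, and the opposite strand covers 40.6% of its exons. Pth1r, the receptor of parathyroid hormone and PTHrP that is also made by osteoblasts, was at 164 FPKM, whereas its ligand Pthlh was at 2.20 FPKM. Ihh, the hedgehog ligand of prehypertrophic chondrocytes, was at 17.5 FPKM and its target Gli1 at 9.09, and Shh was at 0.

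The fibrous and tendon list had a median of 73.4 FPKM, and all 25 genes were at or above 1 FPKM. Fmod led at 1032 FPKM, followed by Col3a1, the cell-binding protein Fn1 at 528 FPKM and the proteoglycan Lum at 512. Per length of the principal transcript, Postn was at 1177 and Fmod at 1094, so which gene leads depends on the length used. The transcription factors of tendon were lower, with Scx at 10.1 FPKM and Mkx at 2.98, and Tnmd, a membrane protein of tendon, was at 5.48. Of 17 small leucine-rich proteoglycans, 14 were at or above 1 FPKM. The highest were Fmod, Chad, Bgn at 700 FPKM, Lum, Dcn at 308 and Aspn at 300, in that order. Per length of the principal transcript, Bgn (1765) stood above Fmod (1094) and Chad (962), so this order also depends on the length used. Prg4, the joint lubricant lubricin, was at 43.8 FPKM. Of 9 synovium and lubrication genes, 6 were at or above 1 FPKM, against 47.0% of all genes. The hyaluronan synthases Has1 and Has2 were at 0.230 and 0.886.

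**Figure D3:**
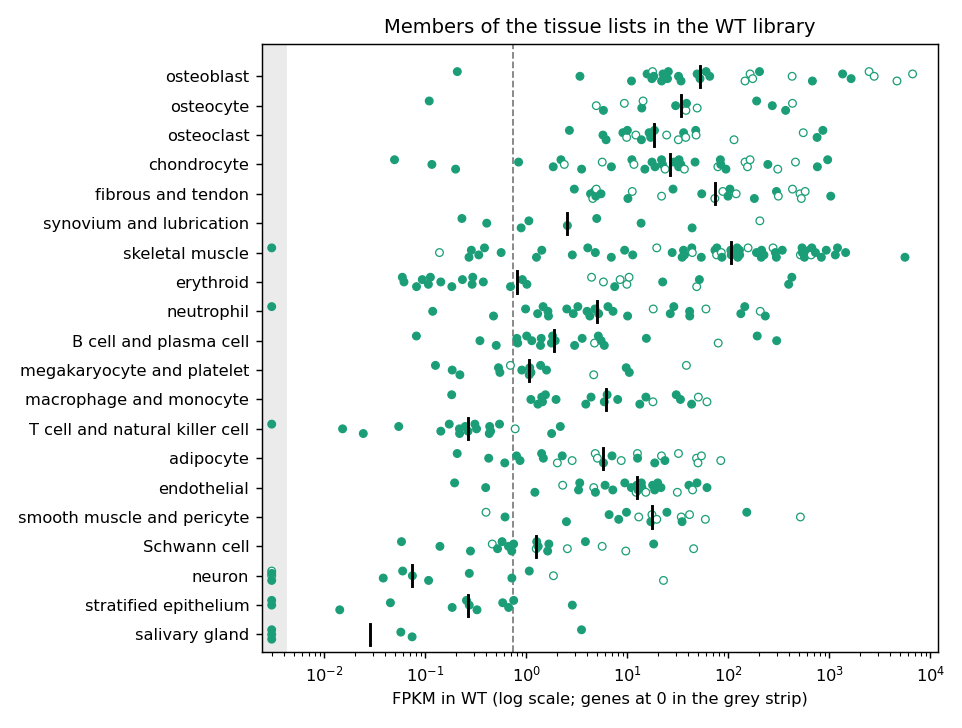
FPKM in the WT library (log scale) of each member of 20 tissue lists. Filled points are genes of 1 tissue list and open points are genes marked as shared between tissues, black bars are list medians, the dashed line is the median of all genes (0.741 FPKM), and genes at 0 stand in the grey strip. The medians of muscle (106), fibrous and tendon (73.4) and osteoblast (52.4) genes are far to the right, and those of T cell (0.264) and neuron (0.0742) genes lie left of the dashed line.

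Muscle genes had the highest median of the tissue lists, 106 FPKM, with 51 of 58 genes at or above 1 FPKM. Among the myosin heavy chains, troponins T and I and calcium pumps, the fast isoforms were the highest. Mybpc1, the slow type of myosin-binding protein C, was at 190 FPKM. Of 1147 FPKM summed over 6 myosin heavy chains, Myh1 (fibre type 2X) held 58.5%, Myh2 (type 2A) 29.8% and Myh4 (type 2B) 10.8%. The neonatal chain Myh8 held 0.818%, the embryonic chain Myh3 0.124%, and the slow chain Myh7 0.0120%. The fast troponins Tnnt3 and Tnni2 were at 1450 and 834 FPKM, and the slow Tnnt1, Tnni1 and Tnnc1 were at 2.85, 0.384 and 0.285 FPKM. Atp2a1 stood at 26.1 times Atp2a2, with an interval of 25.4 to 26.8, and at 19.2 times per principal transcript. Atp2a2 encodes the pump of slow and heart muscle and is also made by other cells. The muscle forms of metabolic enzymes exceeded the general ones, with Eno3 at 12.2 times Eno1, Pgam2 at 6.97 times Pgam1 and Cox6a2 at 3.23 times Cox6a1. Per principal transcript these ratios were 5.11, 6.24 and 2.63. Genes of satellite cells and of fibre formation were low, with Pax7 at 0.270 FPKM, Myog at 0.562 and Myod1 at 6.93.

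Tnnc2, the fast troponin C, was at 0, where 3 fragments would give 0.185 FPKM, although the troponin T and I of the same complex were among the 20 highest nuclear genes. Exons of a gene on the opposite strand cover 74.0% of its exon length in GENCODE M21. Another low value of this kind was Tagln, an abundant protein of smooth muscle, at 0.398 FPKM, of which 67.9% of the exon length is covered by the opposite strand. The part of overlap in these values was not tested, and a 0 here means only that the gene is listed at 0.

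**Figure D4:**
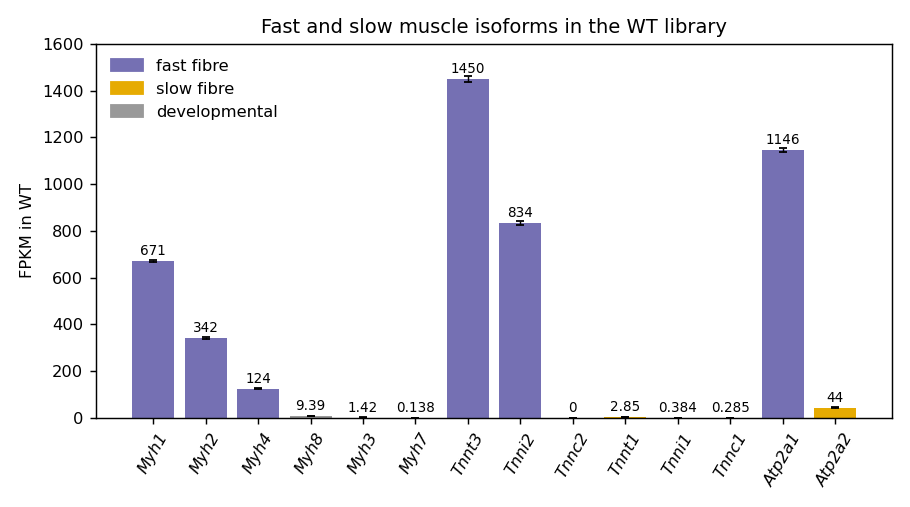
FPKM in the WT library of fast (purple), slow (yellow) and developmental (grey) isoforms of muscle, with 95% counting intervals as error bars. Tnnt3 (1450), Atp2a1 (1146) and Tnni2 (834) are the tallest bars, and Tnnc2 is listed at 0. The slow isoforms shown reach at most 44.0 FPKM, for Atp2a2, which other cells also make. Mybpc1, a slow-type gene at 190 FPKM, is not shown.

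The marrow lists held 1.01% of the summed FPKM, and 94 of 156 genes were at or above 1 FPKM, against 47.0% of all genes. The highest genes of the red cell list were globins. Hbb-bs, an adult beta globin, was at 425 FPKM and Hba-a1, an alpha globin, at 395 FPKM, while Alas2, the first enzyme of heme synthesis in red cells, was at 7.48 FPKM. The red cell membrane and transcription genes were lower still, with Slc4a1 at 1.01 FPKM, Klf1 at 0.290 and Gata1 at 0.142. Between globin copies the split is uncertain, since 63.3% of the 100-base sequences of Hba-a1 occur in Hba-a2 (51.6 FPKM) and 49.7% of those of Hbb-bs occur in Hbb-bt (22.3 FPKM).

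Neutrophil genes ranged widely in level. The calcium-binding proteins of mature neutrophils S100a9 and S100a8 were at 232 and 133 FPKM, and the secondary granule genes Ngp, Camp and Ltf were at 145, 41.3 and 28.8 FPKM. The primary granule genes Elane, Mpo and Prtn3, which are made by precursors, were at 4.77, 3.23 and 2.91 FPKM. S100a9 stood at 71.9 times Mpo, with an interval of 62.6 to 82.8, and at 58.0 times per principal transcript. Exons of the opposite strand cover 15.0% of Mpo. Lyz2, the lysozyme of neutrophils and macrophages, was at 207 FPKM.

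Immunoglobulins held 0.279% of the summed FPKM in 224 genes, of which 61 were at or above 1 FPKM and 97 were at 0. The kappa constant region Igkc was at 301 FPKM and the mu heavy chain Ighm at 193 FPKM. B cell surface and precursor genes were lower, with Cd79b at 5.90 FPKM, Cd79a at 5.49 and Rag1 at 1.82. T and natural killer cell genes were low, with 2 of 19 at or above 1 FPKM, Trac at 2.17 FPKM and Cd3e at 0.0242. Of 20 macrophage genes, 19 were at or above 1 FPKM. The complement genes C1qb and C1qa were at 33.5 and 30.4 FPKM and Adgre1 at 5.90. The platelet genes Ppbp and Pf4 were at 10.4 and 9.73 FPKM. Of mast cell, basophil and eosinophil genes, 2 of 15 were at or above 1 FPKM, led by Prg2, an eosinophil granule protein, at 3.42. Cxcl12, the chemokine of the marrow niche, was at 41.3 FPKM and Lepr, the leptin receptor of stromal cells, at 11.5.

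Vessel genes held 0.453% of the summed FPKM. Endothelial genes were at or above 1 FPKM at 25 of 27, with Plvap, a protein of fenestrated endothelium, at 61.4 FPKM and Cdh5, the cadherin of endothelial junctions, at 48.9. The lymphatic regulator Prox1 was at 0.194 FPKM and Lyve1, of lymphatic vessels and some macrophages, at 2.28. Rgs5, a pericyte gene, was at 152 FPKM and the smooth muscle genes Acta2 and Myh11 were at 34.8 and 8.20. Des, which skeletal muscle also makes, was 53.9% of the smooth muscle and pericyte sum at 517 FPKM.

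Fat and nerve genes were the smallest of the 7 tissues. Of 25 adipocyte genes, 20 were at or above 1 FPKM, against 47.0% of all genes, and their median was 5.80 FPKM. Among those typical of adipocytes, Cfd, or adipsin, was at 23.5 FPKM, Adipoq at 5.80, Plin1 at 1.41 and Lep at 0.206. Cd36, a fatty acid receptor also of muscle and vessels, led the list at 84.1 FPKM. The myelin gene Mbp was at 2.54 FPKM. Pmp22, which other cells also make, was at 45.3 FPKM and 47.0% of the Schwann cell sum. Of 13 neuron genes with a value, 3 were at or above 1 FPKM, and Nefl, Nefm, Calca and Gap43 were at 0. Nefl and Nefm overlap each other's strand over 32.8% and 19.2% of their exon length, whereas Gap43 and Calca overlap no gene.

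Genes of neighbouring tissues were low. Their 28 genes with a value held 0.0043% of the summed FPKM, and 3 of them were at or above 1 FPKM. Amy1, an amylase of salivary gland and liver, was at 3.51 FPKM, Sfn, of stratified epithelium, at 2.85, and Aqp4, a water channel of brain and also of fast muscle fibres, at 1.82. The keratin of basal epithelium Krt14 was at 0. The enamel genes Klk4 and Ambn were at 0.237 and 0.0772 FPKM, with 9 fragments in all.

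Factors that pattern the jaw were measured at higher levels than Hox genes. Of 25 factors of the jaw arch, 18 were at or above 1 FPKM, led by Barx1 at 46.2 FPKM, Twist1 at 35.7, Dlx5 at 34.0 and Prrx1 at 24.97. Hand1 and Hand2, factors of the embryonic arch tip, were at 0, and exons of the opposite strand cover 19.6% of Hand2. Of 23 Hox genes, which give position in the trunk and limbs, only Hoxd8 was above 1 FPKM, at 1.96, and 11 were at 0. All 23 together had 139 fragments. Of 5 limb factors, Shox2 was at 15.4 FPKM and the other 4 were below 1 FPKM.

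Signalling inhibitors, energy and stress genes completed the profile. The Wnt inhibitors Sost and Wif1 were at 272 and 234 FPKM, far above Dkk3 at 53.3 FPKM and Dkk1 at 38.5. Glycolysis genes held 0.960% of the summed FPKM, with 17 of 18 at or above 1 FPKM. Gapdh, which is often used as a reference gene, was at 3.79 FPKM while the enzymes of the steps around it, Tpi1 and Pgk1, were at 169 and 112 FPKM. Of the 100-base sequences of Gapdh, 20.9% also occur in another gene, and 1.65% of its exon length overlaps another gene. Immediate early genes were led by Klf2 at 49.97 FPKM and Jund at 46.5, with Fos at 5.08. The small heat shock protein Cryab was at 401 FPKM and the inducible Hspa1a at 3.00. Of 22 genes of dividing cells, 19 were at or above 1 FPKM with a median of 2.46 FPKM, led by Pcna at 14.9 FPKM, and Mki67 was at 4.34. Of 12 genes of inflammation, 2 were at or above 1 FPKM. These were Tlr4 at 6.53 FPKM and Ptgs2 at 1.11, and Il1b, Tnf and Il6 were at 0.259, 0.241 and 0.0407. Interferon-stimulated genes were led by Bst2 at 14.9 FPKM, and 7 of 14 were at or above 1 FPKM, near the 47.0% of all genes.

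Mitochondrially encoded genes held 25.02% of the summed FPKM in 15 genes, and 9.58% of the fragments. The highest were mt-Co1, a cytochrome oxidase subunit, at 22314 FPKM, mt-Cytb, cytochrome b, at 13625 FPKM, and mt-Nd1, of complex I, at 11764 FPKM. The ribosomal RNAs mt-Rnr2 and mt-Rnr1 were at 1753 and 1382 FPKM in a poly(A) library. Genes with symbols of nuclear-encoded respiratory chain subunits numbered 97, a class taken by symbol that includes pseudogenes such as Ndufa12-ps. This class had a median of 51.7 FPKM, held 2.03% of the sum and was led by Atp5a1, an ATP synthase subunit, at 353 FPKM.

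The protein-coding genes of the mitochondrion are transcribed from long precursors, yet their levels fell into separate ranges. The genes mt-Atp6, mt-Co2, mt-Nd4l, mt-Co3 and mt-Nd3 lay between 111 and 346 FPKM. In each of these 5 genes, 97.6% to 99.9% of the 100-base sequences also occur in another gene. The other protein-coding genes shared 0 to 60.8% of their sequences and lay between 5591 and 22314 FPKM, except mt-Atp8 at 9.44 FPKM, which shared none but has 21.1% of its exon length in another gene.

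**Figure D5:**
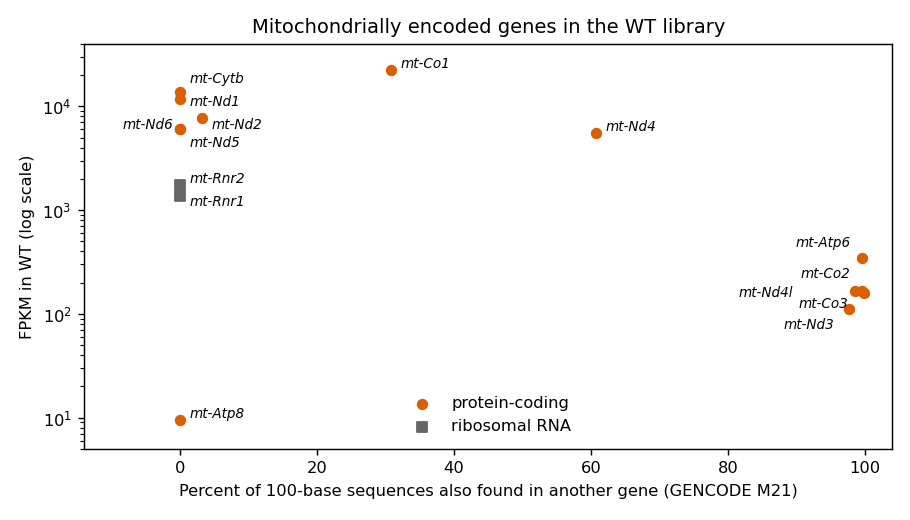
FPKM in the WT library (log scale) of mitochondrially encoded genes against the percent of their 100-base sequences that also occur in another gene of GENCODE M21. The 5 genes on the right, at 97.6% or more, lie between 111 and 346 FPKM, and the other protein-coding genes but mt-Atp8 lie at 5591 or above.

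The sequences of these 5 genes recur in pseudogenes on chromosome 1 that were themselves among the higher pseudogenes of the library. Gm10925 holds 99.5% of the sequences of mt-Atp6 and was at 203 FPKM, and Gm28661 holds 99.5% of those of mt-Co2 and was at 93.1 FPKM. Gm28437 holds 99.9% of those of mt-Co3 and was at 81.7 FPKM. Gm29216, the highest pseudogene at 250 FPKM, shares 26.3% of the sequences of mt-Co1. The part of shared sequence in these levels was not tested.

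Pseudogenes held 2.02% of the summed FPKM in 3012 genes, of which 540 were at or above 1 FPKM. Several stood above the gene whose sequence they carry. Rps10-ps2 was at 99.01 FPKM while Rps10, a ribosomal protein of the small subunit, was at 0.770 FPKM, and 73.8% of the sequences of the pseudogene occur in Rps10. Gm10241, all of whose sequences occur in the modifier gene Sumo2, was at 106 FPKM, against 2.45 for Sumo2. Mpc1-ps was at 146 FPKM against 13.5 for Mpc1, a pyruvate carrier, with 82.3% of its sequences in Mpc1. Tpt1-ps3 went the other way, at 200.2 FPKM against 578 FPKM for Tpt1. These levels of a gene and its copy are uncertain.

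Genes with symbols of cytosolic ribosomal proteins numbered 87, a class taken by symbol that includes related copies such as Rpl3l and Rpl39l. They held 3.73% of the summed FPKM, with a median of 93.8 FPKM and quartiles of 50.2 and 178 FPKM. The genes ranged from Rplp1 at 1064 FPKM to 7 genes under 10 FPKM. Among them were Rpl21, Rpl13a, Rpl24, Rpl39l, Rps10 and Rpl32l. Exons of another gene overlap 47.0% of the exon length of Rpl24 (4.03 FPKM) and 35.4% of Rpl13a (5.91 FPKM), whereas Rpl39l (1.84 FPKM) overlaps none. The 4465 genes with a long noncoding type in GENCODE M21 held 0.743% of the sum. This class also holds genes better known as protein-coding, such as Ifi30 at 55.7 FPKM and Cct6a at 28.5. The imprinted H19 was highest at 93.2 FPKM, and Norad and the nuclear Malat1 were at 48.8 and 41.7 FPKM.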

How the data were processed

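The members of the lists and the lists themselves were chosen with earlier results of these data known. RNA of WT condyles was poly(A) selected, made into a library with an NEB Ultra kit and read in pairs of 150 bases. The authors deposited 1 value per gene and genotype without naming the unit, and the reading as FPKM rests on the finding that the value times merged exon length in GENCODE M21 is a whole number of fragments. This held within 0.05 fragments for 98.6% of 11280 genes with 1 to 99 fragments. The submitters' processing notes name FastQC 0.11.5, HISAT2 2.1.0, StringTie 1.3.3b and DESeq 1.28.0, and the human build hg38, although the genes and positions are those of mouse. The annotation is not given in the sources used here, and the start and end matched those of GENCODE M21 for 589 genes. The labels' protocol speaks of triplicates, but there is 1 value per genotype, taken as 1 pooled library.

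Fragments were recovered for 26652 genes with a length, and the other 318 genes hold 0.141% of the summed FPKM. On simulated data for 26652 genes, 100% of the fragment numbers came back. Those data were made from whole fragments with the same lengths. They check the calculation and cannot show that the lengths are those behind the deposited values. Intervals are Clopper-Pearson at 95%. With 1 library no test was made. Genes named are the 30 highest nuclear genes, the 3 highest mitochondrial genes, the 5 highest, the lowest defining and the zero members of each list, and the highest of each class, with partners of 1 complex. The pairs of gene and pseudogene, Ddx3y, Xist and other low genes were named after their values were seen, and TATAAA was chosen likewise. GENCODE M21 also gave the part of each gene's exons covered by another gene, and the part of its 100-base sequences that recurs in another gene's transcripts. Alternatives were fragments in place of FPKM, lists without mitochondrial genes, without their highest gene or without shared genes, other thresholds, and, added after the values were seen, the length of the principal transcript. Some genes are not reported here. Scripts ran under scipy 1.17.1, pandas 2.3.3, numpy 2.4.6 and Python 3.11.15, and figures were drawn with matplotlib 3.10.9.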

Additional observations from a re-analysis of the deposited data

How the results depend on the processing

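Shares are given for bone, cartilage, muscle, marrow, fat, vessel and nerve in that order, against 8.42%, 1.27%, 6.42%, 1.01%, 0.130%, 0.453% and 0.0400% of the summed FPKM. As fragments they were 12.4%, 1.86%, 5.23%, 0.533%, 0.196%, 0.590% and 0.0362%. Without mitochondrial genes in the sum they were 11.2%, 1.70%, 8.57%, 1.35%, 0.174%, 0.604% and 0.0533%. Without the highest gene of each list they were 6.25%, 0.959%, 4.60%, 0.874%, 0.103%, 0.285% and 0.0253%. Without genes marked as shared they were 2.29%, 0.819%, 5.83%, 0.772%, 0.0245%, 0.190% and 0.0110%. Per length of the principal transcript, chosen after seeing the data, they were 8.69%, 1.40%, 6.12%, 0.896%, 0.161%, 0.423% and 0.0519%. The order of the 7 tissues changed in 2 of these settings, with vessel above marrow as fragments and muscle above bone without shared genes. The count of genes at or above 1 FPKM (12670) became 19170 at 0.1 FPKM and 16015 at 10 fragments or more. The 138 genes that hold 50% of the sum became 490 by fragments, 499 without mitochondrial genes and 222 per principal transcript. No paired analysis was possible because each genotype is 1 library and no comparison between groups was made.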
